A study of Homo sapiens with 4 samples.

Results

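The Wnt receptors, antagonists and transducers described here are 45 listed genes of the Wnt signalling pathway, measured in SH-SY5Y cells, a human neuroblastoma line, after silencing of TSPAN8. A probe set, the group of short oligonucleotides that reports one transcript on the array, was taken as a member where its only platform annotation symbol was a listed gene. This gave 101 of the 54613 probe sets tested, for 43 of 19775 genes. FZD8 and TCF7 had no probe set of their own and are not analysed here. For each gene, the probe set of highest mean signal on the 4 arrays, called the brightest, stands for the gene. Levels are log2 signals, and a difference is knockdown minus control on the log2 scale.

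There were 2 arrays of TSPAN8 knockdown cells and 2 of transfection control cells. Knockdown cells received small interfering RNA against TSPAN8 through the self-delivering Accell system. Both groups were kept in DMEM/F12 medium with fetal bovine serum, with 72 h of incubation, and the arrays were loaded with biotin-labelled product of 100 ng total RNA. The sources used here do not give the agent added to control cells or the sequence of the small interfering RNA. All samples are of 1 cell line, and whether replicates were separate cultures is not stated. The p-values therefore measure the spread of these 4 samples alone, and that spread may be technical.

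Wnt proteins are secreted, lipid-modified ligands that bind the cysteine-rich domain of Frizzled receptors. With the co-receptors LRP5 or LRP6 they recruit Dishevelled and AXIN to the membrane. This halts the complex of AXIN, APC and the kinase GSK3B that otherwise marks beta-catenin for destruction, and beta-catenin then acts with TCF and LEF factors on target genes such as AXIN2, LGR5 and NKD1. Other Wnt ligands act through ROR1, ROR2 and RYK on cell shape and movement without beta-catenin. In the neural crest, from which neuroblastoma arises, Wnt signals take part in the induction and migration of precursor cells.

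TSPAN8, which encodes the cell-surface protein tetraspanin 8, fell to 6.25 and 6.35 on the knockdown arrays, against 7.52 and 7.62 on the control arrays (limma, difference -1.27 ± 0.062 SE, adjusted p = 0.0026). It was the only probe set of the table to pass an adjusted p under 0.05 (0.00183% of 54613 probe sets, or 0.00506% of 19775 genes). Pearson's r between arrays was 0.998 within each group and 0.997 to 0.998 between groups, taken across probe sets, which are not independent. Of 9 measured noradrenergic markers 8 lay below control, with median deviations of -0.11 and -0.100 on the knockdown arrays, against 0.0059 and -0.0059 on the control arrays. Of these 9, 8 had a signal above the array median, and of all genes above it 7899 of 12531 lay below control. The largest differences among the markers were those of DBH (-0.35), CHGA (-0.29) and CHGB (-0.20). The noradrenergic regulators PHOX2A, HAND2, GATA2, GATA3 and ISL1 had control signals of 11.13, 7.66, 12.24, 12.82 and 12.98. Their differences were smaller, at -0.086, -0.045, -0.059, -0.014 and -0.045. TH, the first enzyme of catecholamine synthesis and a defining marker, was at 5.96, below the brightest of 13 genes restricted to other organs, HBB (6.84). Of 12 mesenchymal and fibroblast markers, 10 lay above control, where 44.4% of all genes did. Their median deviation from the control mean was 0.23 and 0.058 on knockdown replicates 1 and 2, against 0.020 and -0.020 on the control arrays. Their signals, taken off the log scale and summed, were 16269 and 14058 in knockdown cells and 14159 and 13422 in control cells. POSTN, PRRX1 and COL1A2 had control signals of 5.70, 6.17 and 6.39, all below HBB, and the levels of TWIST1 (12.85) and LUM (11.26) were above it. In bulk RNA, a change in the number of cells of a type and a change in RNA per cell cannot be told apart. Of 7 measured Schwann cell and melanocyte markers, 6 lay above control, none by more than 0.071.

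No member probe set passed the threshold (0 of 101 by limma, lowest adjusted p 0.58). At an unadjusted p under 0.05 there were 9 of 43 member genes (20.9%), where the share over all genes was 7.96%. Among genes above the array median it was 8 of 33 members (24.2%), beside 10.3% of all such genes. The members were chosen with earlier results of these data known, so these shares describe the list and do not test an excess. Of the 9 genes, DKK2, DKK4, SFRP1 and FZD4 lay above control and TNFRSF19, DVL3, DKK3, LRP5 and FZD3 below it. Over all genes 2.39% were above and 5.57% below by this rule. Counted by probe set, 19 of 101 had an unadjusted p under 0.05 (18.8%), where all probe sets gave 7.83%, and they belonged to 13 genes. Of these 19, 9 were above control and 10 below, where 3.72% and 4.12% of all probe sets were. In 18 of these 19 the difference between the groups was larger than the gap between the arrays of either group. The p-values that selected them rest on the same differences and gaps, so this count is no further evidence. The groups' arrays did not overlap for 20 of 43 member genes (46.5%), beside 38.5% of all genes. Of these, 11 were above control and 9 below, where 14.3% and 24.2% of all genes were. By probe set it was 46 of 101 (45.5%), with 26 above and 20 below, beside 37.5% of all probe sets, 17.7% above and 19.8% below. In all, 20 member genes had a difference above 0 and 23 below, where 44.4% of all genes were above and 55.6% below, and 52 and 49 of the 101 probe sets, where 50% of all probe sets lay on each side. The differences of the member genes ran from -0.30 to 0.52, with a median of -0.0032, beside -0.0094 over all genes. Both counts depended on single arrays. The 9 genes became 2 without knockdown replicate 1 (DKK2 and TNFRSF19, with 6.97% of all genes), 11 without knockdown replicate 2 (13.1% of all genes), and 5 on leaving out control replicate 1 (4.95%) or control replicate 2 (5.54%). The 0 member probe sets past the adjusted threshold became 8 without knockdown replicate 2, in DKK2, DKK3, FZD3, LGR5, ROR1, SFRP1 and TNFRSF19, where 1026 of all probe sets passed.

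**Figure D1:**
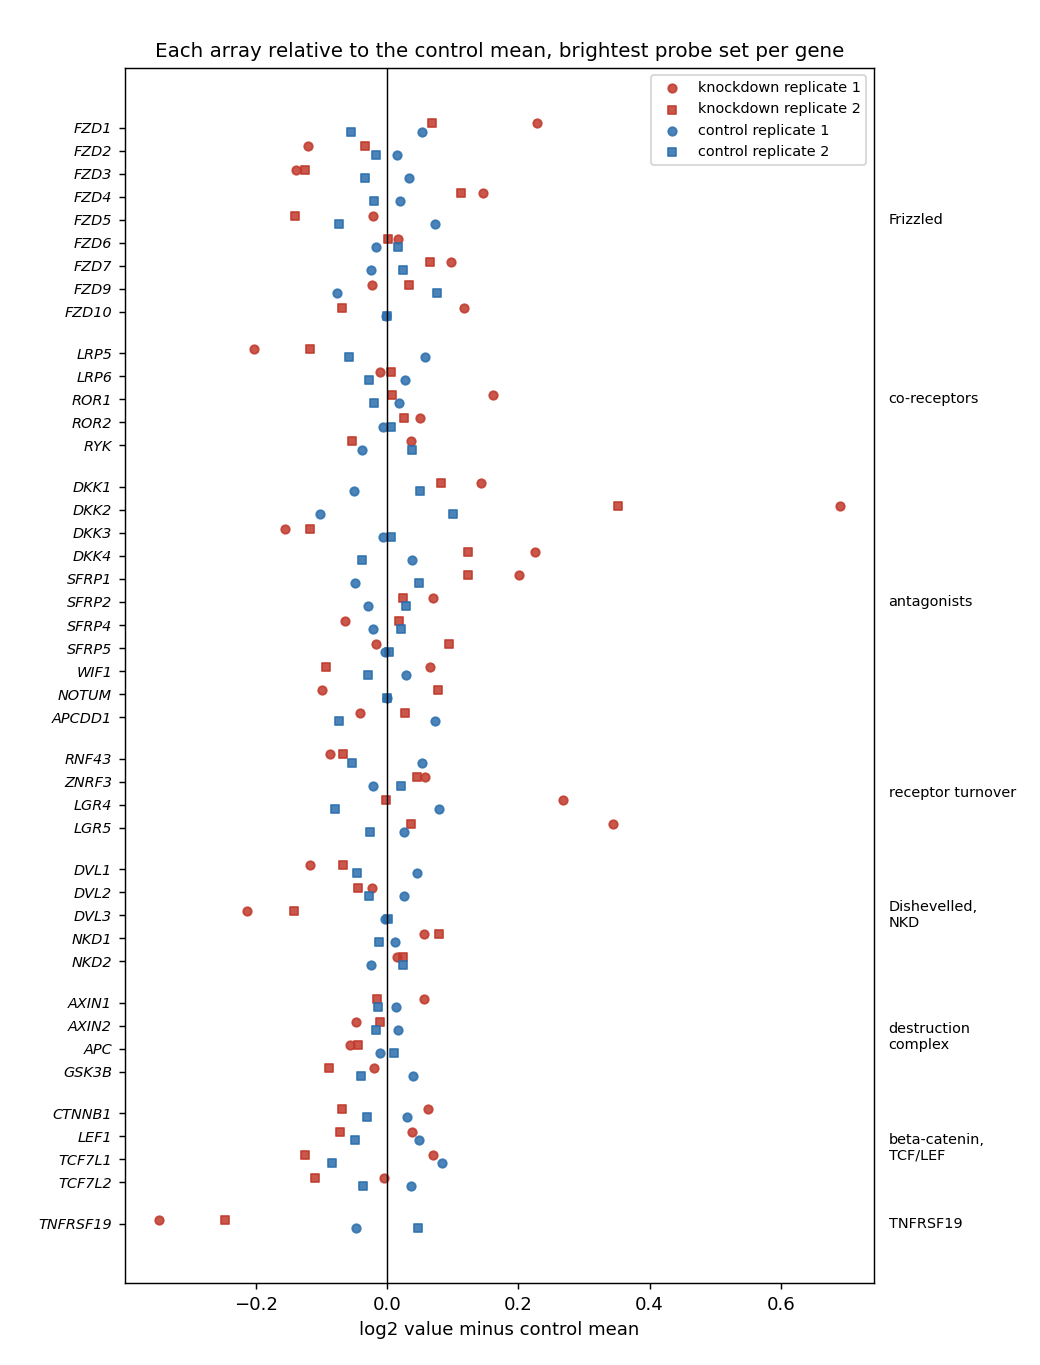
Log2 value on each array minus the control mean, for the brightest probe set of each of 43 member genes, grouped by role. Red symbols are knockdown arrays and blue symbols control arrays, circles are replicate 1 and squares replicate 2. DKK2 stands farthest to the right on both knockdown arrays and TNFRSF19 farthest to the left, while the beta-catenin and TCF/LEF genes overlap throughout.

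Promoter windows are shown for the member genes whose brightest probe set had an unadjusted p under 0.05 and that had an entry in the RefSeq promoter table (GRCh38.p14). That of DKK1 is added as the only member window with either of the TCF/LEF core motifs searched. Each window is the 250 bases before the annotated gene start, given 5′ to 3′ on the gene's strand. Of the 45 listed genes, 30 had an entry. The motifs searched were CTTTGAT and CTTTGTT on both strands, and other forms of the core were not searched. At least 1 was found in 6.61% of 34788 promoter windows of this length and in 1 of 30 member windows (3.33%). Capitals mark that match, whose first base lies 76 bases before the gene start on the gene's strand. The windows of TNFRSF19 (chr13:23570162-23570411, plus strand), DVL3 (chr3:184155127-184155376, plus strand), LRP5 (chr11:68312341-68312590, plus strand), FZD4 (chr11:86955396-86955645, minus strand) and DKK1 (chr10:52314031-52314280, plus strand) read as follows.
TNFRSF19: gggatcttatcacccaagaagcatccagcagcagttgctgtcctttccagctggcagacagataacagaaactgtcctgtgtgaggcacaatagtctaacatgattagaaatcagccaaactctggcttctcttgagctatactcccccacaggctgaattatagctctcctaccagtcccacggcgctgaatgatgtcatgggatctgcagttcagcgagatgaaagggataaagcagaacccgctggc
DVL3: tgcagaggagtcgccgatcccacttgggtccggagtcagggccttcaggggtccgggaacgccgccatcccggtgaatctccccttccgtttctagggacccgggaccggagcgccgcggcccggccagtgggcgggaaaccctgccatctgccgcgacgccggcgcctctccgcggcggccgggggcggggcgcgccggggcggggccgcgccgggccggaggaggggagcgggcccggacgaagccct
LRP5: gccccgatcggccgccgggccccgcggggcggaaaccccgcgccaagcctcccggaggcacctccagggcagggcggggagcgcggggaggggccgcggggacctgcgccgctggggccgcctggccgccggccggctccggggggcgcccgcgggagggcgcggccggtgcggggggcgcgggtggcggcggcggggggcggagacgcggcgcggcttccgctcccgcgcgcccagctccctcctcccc
FZD4: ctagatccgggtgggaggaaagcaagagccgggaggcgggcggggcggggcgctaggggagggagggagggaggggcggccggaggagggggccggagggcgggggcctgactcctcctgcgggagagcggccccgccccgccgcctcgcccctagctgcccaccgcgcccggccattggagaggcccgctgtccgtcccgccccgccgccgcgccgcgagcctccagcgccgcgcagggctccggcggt
DKK1: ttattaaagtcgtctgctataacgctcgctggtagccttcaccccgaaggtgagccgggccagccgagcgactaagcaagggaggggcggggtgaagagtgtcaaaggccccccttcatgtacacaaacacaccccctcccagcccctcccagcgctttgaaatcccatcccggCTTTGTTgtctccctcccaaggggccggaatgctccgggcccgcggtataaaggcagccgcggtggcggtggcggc

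The windows differed in base composition. That of TNFRSF19 had 49.6% G and C and 4 CpG pairs, at percentile 31.6 of all windows for its G and C content. Those of DVL3, LRP5 and FZD4 had 77.6%, 87.2% and 80.8% G and C, with 36, 43 and 33 CpG pairs. DKK1 lay between them, at 62.8% and 18 CpG pairs. Over the 30 member windows the median was 71.2% G and C, beside 58.0% over all windows. TNFRSF19 has 2 annotated starts in the table, and the window shown is that of the outer one. Which start these cells use was not measured.

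Frizzled receptors, which bind the Wnt ligand, spanned the range from array background to well-detected signals. Of 9 measured receptors, 6 had control signals above that of HBB, and FZD5 (6.78), FZD9 (6.49) and FZD10 (5.80) did not. A level below HBB gives no evidence of a transcript, since probe sets differ in affinity and the table holds no detection calls. For the same reason the order of levels between genes is not an order of abundance. No receptor passed the threshold. Differences ran from -0.13 to 0.15 with a median of 0.0097, and 7 of the 18 receptor probe sets had an unadjusted p under 0.05 (2 above control and 5 below), where all probe sets gave 7.83% (3.72% above and 4.12% below). Of these 7, 4 are probe sets of FZD3 and share the same 4 RNA samples.

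**Figure D2:**
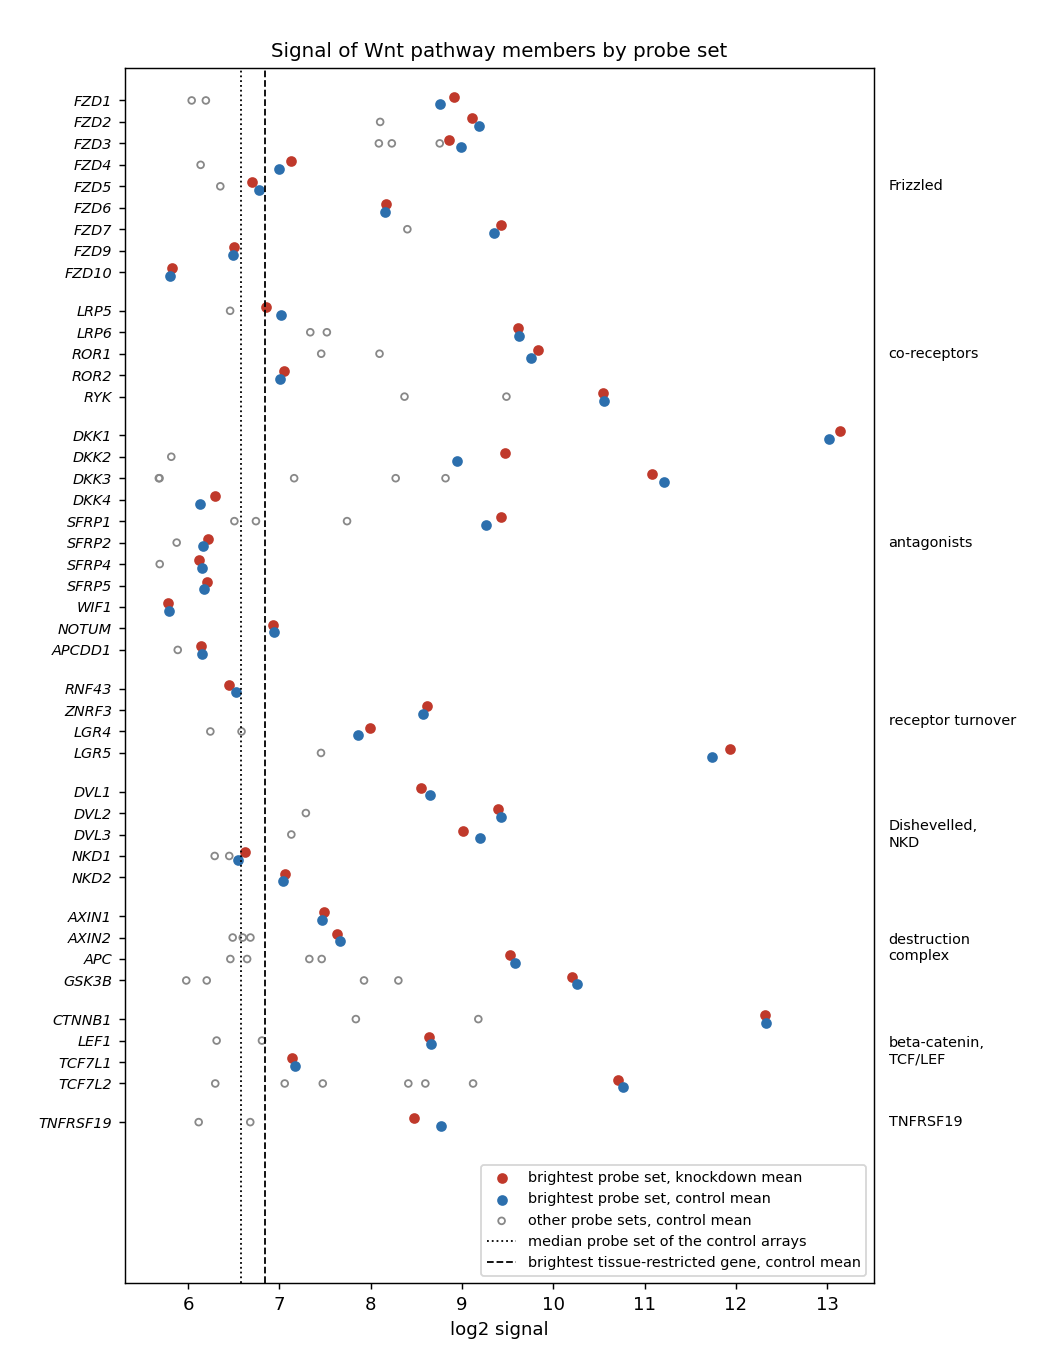
Log2 signal of the brightest probe set of each member gene in knockdown (red) and control (blue) cells, with the control means of its other probe sets as open circles. The dotted line is the median probe set of the control arrays and the dashed line the brightest of 13 genes restricted to other organs (6.84). Of 43 member genes, 11 have a control mean at or left of the dashed line.

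FZD3, a receptor of axon guidance and of planar polarity, lay below control at all 4 of its probe sets. The brightest gave 8.85 and 8.87 on the knockdown arrays, against 9.03 and 8.96 on the control arrays. The second gave 8.58 and 8.49 in knockdown cells and 8.70 and 8.81 in control cells, and the third 7.90 and 8.005, against 8.30 and 8.16. The fourth gave 7.94 and 7.89, against 8.17 and 8.005. Knockdown and control arrays did not overlap at any of the 4 probe sets, all of which had control signals above that of HBB. The differences were -0.13, -0.22, -0.28 and -0.17, and each had an unadjusted p under 0.05 (limma, 0.040, 0.0083, 0.0034 and 0.033), though none passed (adjusted p 0.58 to 0.63). The probe sets share the same 4 RNA samples and are not replicates. Of the 1393 genes with 4 probe sets, 19.96% had all of them on the same side of control, so agreement in sign is not rare. With 1 array left out the brightest probe set ranged from -0.16 to -0.098, and in none of the 4 such fits was its unadjusted p under 0.05. After a second quantile normalization it was at -0.097.

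FZD1 and FZD7 lay above control at all of their probe sets. FZD1 gave 8.99 and 8.83 in knockdown cells, against 8.81 and 8.70 in control cells, a difference of 0.15 ± 0.070 (SE). Its 2 dimmer probe sets differed by 0.10 and 0.11, at control signals of 6.19 and 6.04, both below HBB. The groups' arrays did not overlap at any of the 3. Without knockdown replicate 1 its difference was 0.069. FZD7, the brightest receptor by signal and one often found in stem and progenitor cells, gave 9.44 and 9.41, against 9.32 and 9.37 (difference 0.082), and at its second probe set 8.60 and 8.52, against 8.39 and 8.41 (difference 0.16, limma, unadjusted p = 0.020). The arrays of the groups did not overlap at either probe set of FZD7, and both carry the suffix of sets that can bind more than 1 transcript.

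FZD2 lay below control at both probe sets. It gave 9.06 and 9.15 in knockdown cells and 9.20 and 9.17 in control cells at the brightest (difference -0.077), and 7.97 and 7.93 against 8.09 and 8.12 at the other (-0.15, limma, unadjusted p = 0.019). FZD4, which also binds the non-Wnt ligand norrin, was dim, at 7.14 and 7.11 in knockdown cells and 7.01 and 6.97 in control cells. Its difference was 0.13 ± 0.052 (SE; limma, unadjusted p = 0.038), and its other probe set differed by 0.019. FZD6 was at 8.17 and 8.16, against 8.14 and 8.17, a difference of 0.0097 with a 95% confidence interval of -0.11 to 0.13. FZD10 stood at 5.91 and 5.73 in knockdown cells and at 5.80 on both control arrays, the lowest level of the family.

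**Figure D3:**
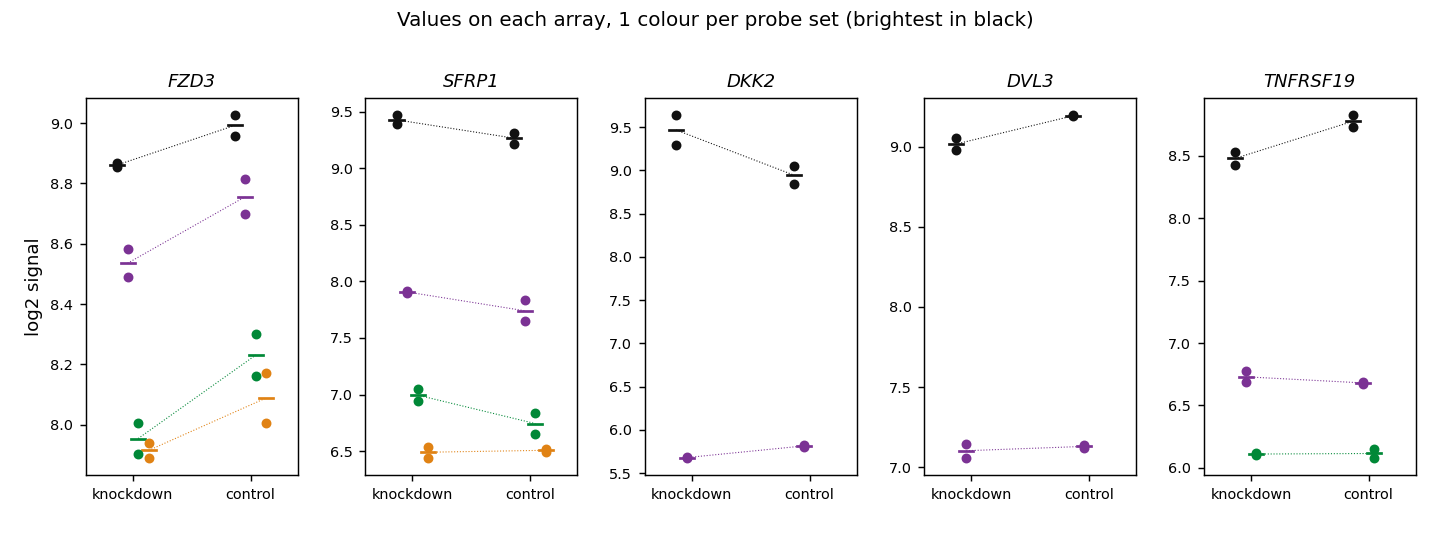
Log2 signal on each array for every probe set of FZD3, SFRP1, DKK2, DVL3 and TNFRSF19, with knockdown left of control. Points are arrays, short bars are group means and each colour is a probe set, the brightest in black. All 4 probe sets of FZD3 slope the same way, whereas those of DKK2 and TNFRSF19 do not.

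Co-receptors were all above HBB in control cells, from ROR2 (7.01) to RYK (10.55). LRP6, a partner of Frizzled in beta-catenin signalling, did not pass at any probe set. It gave 9.61 and 9.63 in knockdown cells and 9.65 and 9.59 in control cells at the brightest, a difference of -0.0016 with a 95% confidence interval of -0.12 to 0.12. The dimmest of its 3 probe sets gave 7.55 and 7.44, against 7.35 and 7.33 (0.16, limma, unadjusted p = 0.027). LRP5, its relative, gave 6.81 and 6.90 in knockdown cells, against 7.07 and 6.96 in control cells, with no overlap (-0.16 ± 0.062 SE, limma, unadjusted p = 0.035). The other probe set of LRP5 differed by 0.065, in the opposite direction, and its control signal of 6.46 was below HBB.

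ROR1, a receptor of the WNT5A branch that is expressed in embryonic tissue and several tumours, had a mean above control at all 3 probe sets. The brightest gave 9.91 and 9.76 in knockdown cells and 9.77 and 9.73 in control cells, which overlap. Without knockdown replicate 1 it differed by 0.0071 and the second probe set by -0.018, and without control replicate 1 the second differed by -0.025, so the direction of the second rests on single arrays. The dimmest gave 7.85 and 7.60, against 7.47 and 7.45, a difference of 0.27 ± 0.082 (SE; limma, unadjusted p = 0.012), and 0.14 without knockdown replicate 1. ROR2 was at 7.06 and 7.03, against 7.003 and 7.01, a difference of 0.038 (95% confidence interval -0.080 to 0.16). RYK, the brightest co-receptor, gave 10.59 and 10.496 in knockdown cells and 10.51 and 10.59 in control cells. All 3 RYK probe sets lay below control, by 0.0088 to 0.059, and all overlapped between the groups.

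Secreted and membrane antagonists, which keep Wnt from its receptors, held the largest difference upward and the brightest member. Of 11 measured, 4 had an unadjusted p under 0.05 (3 above control and 1 below), where 2.39% of all genes were above and 5.57% below, and none passed. The median difference was 0.039, that of SFRP5 at a control signal of 6.17, beside -0.0094 over all genes. Of the 11 antagonists, 6 had a signal below the array median. Over all genes the median difference was 0.0098 below the array median and -0.024 above it. In control cells 5 were above HBB, and DKK4, SFRP2, SFRP4, SFRP5, WIF1 and APCDD1 were not. DKK2, which binds LRP5 and LRP6 and can inhibit or, in some settings, promote signalling, gave 9.64 and 9.30 on the knockdown arrays, against 8.85 and 9.05 on the control arrays. Both knockdown arrays were above both control arrays, and knockdown replicate 1 was the higher. The difference was 0.52 ± 0.11 (SE), or 143% of the control signal (95% confidence interval 0.26 to 0.78, limma, unadjusted p = 0.0017, adjusted p = 0.58). Without knockdown replicate 1 it was 0.35 and without knockdown replicate 2 it was 0.69, where it passed (adjusted p = 1.5e-05, with the lone array assumed to vary like the other group). The other DKK2 probe set gave 5.68 and 5.68, against 5.80 and 5.83, a difference of -0.14 (limma, unadjusted p = 0.029) at signals below HBB. The median deviation of the mesenchymal markers was also higher on knockdown replicate 1 (0.23, against 0.058 on replicate 2), though PRRX1 was lower there. On the control arrays that median was 0.020 and -0.020, where DKK2 was the lower on replicate 1. The part of these markers in the DKK2 result was not tested.

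SFRP1, a soluble decoy with a Frizzled-like domain, lay above control at 3 of its 4 probe sets. These gave 9.47 and 9.39 in knockdown cells, against 9.22 and 9.32 in control cells, then 7.91 and 7.90, against 7.65 and 7.83, and 7.05 and 6.94, against 6.65 and 6.83. Their arrays did not overlap between the groups. The differences were 0.16, 0.17 and 0.25, each with an unadjusted p under 0.05 (limma, 0.026, 0.042 and 0.0090). The fourth, at a control signal of 6.51, differed by -0.017. All 4 carry the suffix of sets that can bind more than 1 transcript. Without knockdown replicate 1 the brightest differed by 0.12 and without control replicate 1 by 0.11.

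DKK1, a high-affinity inhibitor of LRP5 and LRP6, was the brightest of all members, at 13.17 and 13.11 in knockdown cells and 12.97 and 13.07 in control cells. Its difference was 0.11 ± 0.059 (SE; 95% confidence interval -0.023 to 0.25), with no overlap between the arrays. DKK3, a divergent member of the family that does not bind LRP6, gave 11.06 and 11.10, against 11.21 and 11.22 (-0.14 ± 0.052 SE, limma, unadjusted p = 0.030). The 6 probe sets of DKK3 were split, with 3 above and 3 below control, from -0.14 to 0.15, and their mean differed by -0.013. DKK4 was at 6.35 and 6.25, against 6.16 and 6.09 (0.17 ± 0.060 SE, limma, unadjusted p = 0.020), but these signals lie below HBB. NOTUM, an enzyme that removes the lipid from Wnt, was at 6.84 and 7.02, against 6.94 and 6.94. WIF1, the dimmest member, was at 5.85 and 5.69, against 5.82 and 5.76. The brightest probe sets of SFRP2, SFRP4, SFRP5 and APCDD1 had control signals between 6.15 and 6.17 and differences between -0.023 and 0.047.

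Receptor turnover is set by the ligases RNF43 and ZNRF3, which remove Frizzled from the surface, and by LGR4 and LGR5, the R-spondin receptors that restrain them. Of these 4 genes, none had an unadjusted p under 0.05. LGR5, also a Wnt target and a stem cell marker in the intestine, was bright, at 12.08 and 11.78 in knockdown cells and 11.77 and 11.71 in control cells. Its second probe set gave 7.80 and 7.52, against 7.49 and 7.42. The differences, 0.19 ± 0.094 (SE) and 0.20 ± 0.089 (SE), were set by knockdown replicate 1. Without that array the brightest probe set differed by 0.036, and without knockdown replicate 2 by 0.34 (limma, adjusted p = 0.010).

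LGR4 was also highest on knockdown replicate 1, at 8.13 and 7.86 in knockdown cells and 7.94 and 7.78 in control cells, which overlap. The difference was 0.13 ± 0.094 (SE), and -0.0014 without knockdown replicate 1. Its other 2 probe sets differed by 0.023 and 0.037. RNF43 gave 6.44 and 6.46, against 6.58 and 6.47, under the level of HBB. ZNRF3 gave 8.62 and 8.61, against 8.55 and 8.59 (0.052, 95% confidence interval -0.068 to 0.17). The median of the mesenchymal markers was likewise higher on knockdown replicate 1. The part of these markers in the values of LGR4 and LGR5 was not tested.

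Dishevelled proteins carry the signal from the receptor, and NKD1 and NKD2 bind and restrain them. All 3 Dishevelled genes were below control at every probe set. DVL3 gave 8.98 and 9.05 in knockdown cells and 9.19 on both control arrays, with no overlap. The difference was -0.18 ± 0.054 (SE), or 88.5% of the control signal (limma, unadjusted p = 0.011, adjusted p = 0.60). With 1 array left out it ranged from -0.21 to -0.14. The dimmer probe set of DVL3, of the kind that can bind other transcripts, differed by -0.027. DVL1 was at 8.53 and 8.58, against 8.69 and 8.60 (-0.092 ± 0.057 SE). DVL2 was at 9.40 and 9.38, against 9.45 and 9.40 (-0.033, 95% confidence interval -0.16 to 0.088). Over all genes with a signal above the array median, 7899 of 12531 lay below control, so a direction below control is the common one for such genes. NKD1, a feedback target, was near background, at 6.61 and 6.63 in knockdown cells and 6.56 and 6.54 in control cells, and NKD2 differed by 0.020.

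The destruction complex showed no difference past the threshold, and 0 of its 15 probe sets had an unadjusted p under 0.05. AXIN1, its scaffold, gave 7.52 and 7.45 in knockdown cells and 7.48 and 7.45 in control cells. AXIN2, a scaffold that is itself a widely used Wnt target, gave 7.61 and 7.65, against 7.68 and 7.64, a difference of -0.029 with a 95% confidence interval of -0.15 to 0.092. Of its 4 probe sets, 2 were above and 2 below control, from -0.029 to 0.085. APC, the large scaffold lost in colon tumours, gave 9.52 and 9.53, against 9.57 and 9.59 (-0.050, 95% confidence interval -0.17 to 0.068). GSK3B, the kinase, gave 10.24 and 10.18, against 10.30 and 10.22 (-0.053, 95% confidence interval -0.19 to 0.078). APC and GSK3B had 5 probe sets each, which disagreed in sign.

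**Figure D4:**
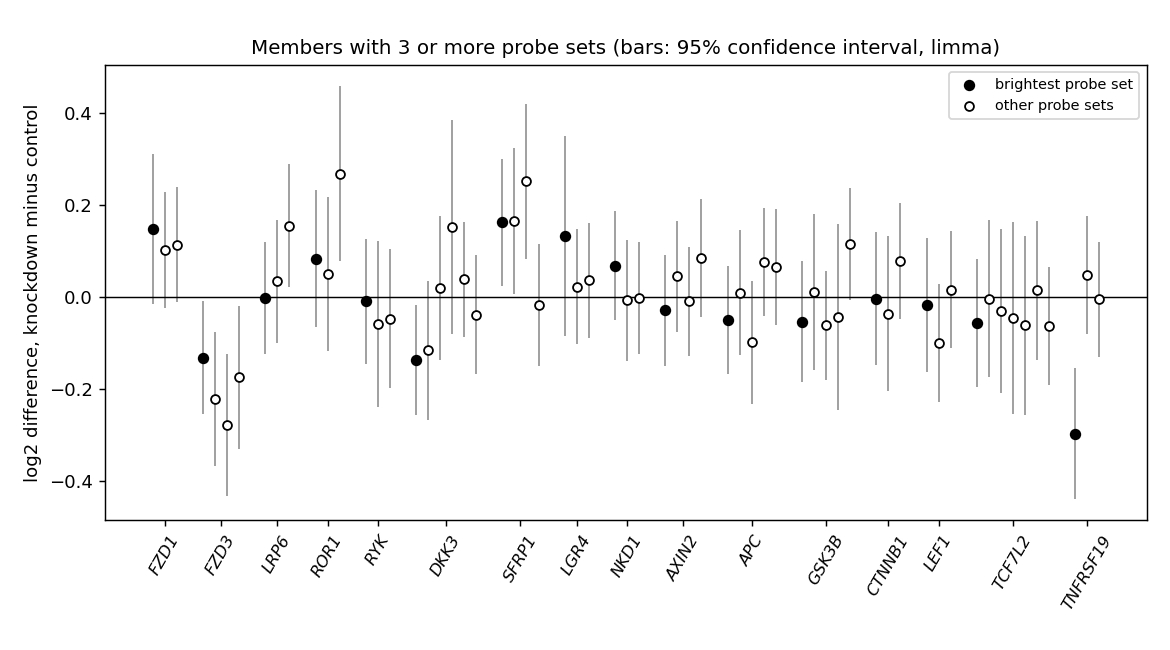
Log2 difference, knockdown minus control, of each probe set of the 16 members with 3 or more probe sets, with the brightest as a filled point. Bars are 95% confidence intervals from limma. The 4 intervals of FZD3 lie below 0 and 3 of the 4 of SFRP1 above it, whereas every interval of AXIN2, APC, GSK3B, CTNNB1, LEF1 and TCF7L2 includes 0.

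Beta-catenin and the measured TCF and LEF factors overlapped between the groups at the brightest probe set of each gene. CTNNB1, which encodes beta-catenin, was at 12.39 and 12.26 in knockdown cells and 12.36 and 12.30 in control cells. The difference was -0.0032 with a 95% confidence interval of -0.15 to 0.14. TCF7L2, the DNA-binding partner with the most probe sets (7), gave 10.76 and 10.66, against 10.80 and 10.73 (-0.057, 95% confidence interval -0.20 to 0.082), and 6 of its 7 probe sets were below control, by at most 0.063. LEF1, which mediates activation by beta-catenin, gave 8.70 and 8.59, against 8.71 and 8.61 (-0.017). TCF7L1, mainly a repressor, gave 7.24 and 7.04, against 7.25 and 7.08 (-0.027). Replicate 1 was the higher array of its group for each of these 4 genes in both groups.

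TNFRSF19, a receptor of the tumour necrosis factor family that is induced by beta-catenin in several tissues, had the largest difference downward. Its brightest probe set gave 8.43 and 8.53 in knockdown cells and 8.73 and 8.82 in control cells, with no overlap. The difference was -0.30 ± 0.062 (SE), or 81.4% of the control signal (95% confidence interval -0.44 to -0.15, limma, unadjusted p = 0.0014, adjusted p = 0.58). With 1 array left out it ranged from -0.35 to -0.25, and its unadjusted p was under 0.05 in all 4 such fits. The other 2 probe sets, at control signals of 6.68 and 6.12, differed by 0.049 and -0.0044, so the mean over all 3 was -0.084. Their control signals were below HBB.

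Where a gene had several probe sets, agreement between them was not the rule. Of 28 member genes with 2 or more, 12 had all on the same side of control (42.9%), where 38.4% of 10523 genes with 2 or more did so. Of the 12 members that agreed, 7 were above control (FZD1, FZD4, FZD7, ROR1, SFRP2, LGR4 and LGR5) and 5 below (FZD2, FZD3, RYK, DVL2 and DVL3). Among the 7, FZD1, FZD4, SFRP2 and LGR4 had probe sets with control signals below HBB. All probe sets of the 5 were above it.

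Of 106 further pathway genes, chosen with earlier results of these data known, 102 had a probe set of their own, and none passed the threshold. At an unadjusted p under 0.05 there were 15 of 102 (14.7%), with 5 above and 10 below control, where all genes gave 7.96%. Among ligands and their secretion, 1 of 18 did so, WNT2B, at 6.45 and 6.41 in knockdown cells and 6.27 and 6.31 in control cells, below HBB. WLS, the carrier that brings Wnt to the cell surface, was at 10.18 and 10.00, against 9.96 and 9.92 (0.14 ± 0.069 SE), and WNT10A differed by 0.11. Among R-spondins and other extracellular modulators it was 1 of 16, TPBG, a membrane inhibitor of LRP6, at 10.39 and 10.16, against 10.06 and 10.07 (0.21 ± 0.078 SE). GPC3, a membrane proteoglycan, was at 8.54 and 8.19, against 8.29 and 8.04, which overlap, and KREMEN2, a receptor for DKK1, at 6.70 and 6.87, against 6.89 and 6.88. These values rested on knockdown replicate 1. Without it WLS differed by 0.053, TPBG by 0.090, GPC3 by 0.020 and KREMEN2 by -0.011. The median of the mesenchymal markers was also higher on that array, and the part of these markers in these values was not tested.

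Further cytoplasmic transducers lay mostly below control, at 15 of 18 genes, with a median of -0.064, beside -0.024 over all genes above the array median. There were 4 with an unadjusted p under 0.05 (22.2%), all below. Of the 18 genes, 16 had a signal above the array median. Of all genes above it, 7899 of 12531 lay below control, and 1018 did so with such a p. TNKS, the tankyrase that destabilises AXIN, gave 9.67 and 9.76 in knockdown cells and 9.92 and 9.91 in control cells (-0.20 ± 0.055 SE). CXXC5, an inhibitor of Dishevelled, and FRAT2, a binding protein of GSK3, differed by -0.15 and -0.14, and APC2 by -0.15 (-0.075 without knockdown replicate 1). Of 16 nuclear partners of beta-catenin, all with signals above the array median, 12 lay below control and 3 had an unadjusted p under 0.05. Of all genes above that median, 7899 of 12531 lay below control and 10.3% had such a p. These were CTNNBIP1, which blocks the binding of beta-catenin to TCF, at 7.89 and 7.90, against 8.12 and 8.11 (-0.22 ± 0.051 SE), the acetyltransferase EP300 (-0.20) and the chromatin remodeller SMARCA4 (-0.14).

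The planar polarity branch held PRICKLE1, at 8.55 and 8.30 in knockdown cells and 8.10 and 8.11 in control cells (0.32 ± 0.083 SE), and the receptors PTK7 (-0.17) and CELSR3 (-0.24), 3 of 15 at an unadjusted p under 0.05. Further Wnt target genes had a median of -0.0062 over 19 genes, with 3 at an unadjusted p under 0.05. These counts are 20% of the planar polarity genes and 15.8% of the further target genes. By the same rule it was 7.96% of all genes and 10.3% of all genes above the array median. MSX2 differed by 0.14 and ASCL2 by -0.15, both at control signals below HBB (6.70 and 6.51), and SOX9 by 0.41 ± 0.17 (SE), with 8.71 and 8.06 in knockdown cells and 8.02 and 7.93 in control cells. Without knockdown replicate 1, SOX9 differed by 0.088, PRICKLE1 by 0.19 and CELSR3 by -0.099. The median of the mesenchymal markers was also higher on that array, and the part of these markers in these 3 genes was not tested. Without knockdown replicate 2 ASCL2 differed by -0.084.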

How the data were processed

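Total RNA of 4 SH-SY5Y samples was hybridised to 3′-labelled oligonucleotide arrays, 1 for each sample. The authors deposited log2 signals. Per the submitters' processing notes RMA and R 3.0.1 were used, and no settings are given. Scanner files and detection calls were not used here, so background was read against genes restricted to other organs. RMA compresses changes near background, and with 4 arrays the precision is low.

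Of 54675 probe sets, 62 AFFX controls were left out. The platform annotation gave 1 gene for 41091 probe sets, several for 1801 and none for 11721. A RefSeq identifier was found for 41037 of those with 1 gene, and 0 symbols changed. The groups were compared in limma 3.58.1 under R 4.3.3 (functions lmFit and eBayes), two-sided and without covariates, with Benjamini-Hochberg adjustment over 54613 probe sets and a threshold of 0.05. The script was tested on simulated data.

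The members and lists were chosen with earlier results of these data known. Values on every array are given for TSPAN8 and, within each role, for the 3 genes with the smallest p and the brightest and dimmest gene, for genes with a probe set at an unadjusted p under 0.05, and for genes whose 3 or more probe sets all lay on one side. Of each further pathway list the 3 genes with the smallest p are named, and further genes of a list were named after their values were seen. The correlation of deviations between arrays with the same replicate number was 0.051 over all probe sets. With 2 arrays per group both pairs give the same value, so it cannot settle whether the arrays were paired. Alternatives were a filter on dim probe sets, other normalizations, variance models, gene summaries, a replicate block and leaving out each array. Figures were drawn with matplotlib 3.10.9 in Python 3.11.15.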

Additional observations from a re-analysis of the deposited data

How the results depend on the processing

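TSPAN8 kept its direction under every alternative, at -1.32 to -1.22 with 1 array left out. Same-numbered arrays were not shown to be pairs, and with a replicate block TSPAN8 was at -1.27 with adjusted p = 0.16, so that 0 probe sets passed, by the construction of that fit with fewer degrees of freedom. With 1 array left out, 1 to 1026 of all probe sets and 0 to 8 member probe sets passed, the highest counts without knockdown replicate 2. The member genes at an unadjusted p under 0.05 numbered 2 to 11 then. The cause was not tested. The median difference of the member genes, -0.0032, became 0.010 after a second quantile normalization, -0.017 after median centring, 0.013 with gene means, 0.020 with the probe set of smallest spread, and -0.0014 to 0.018 with 1 array left out, so it has no settled sign.

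Single genes changed sign as follows, and the cause was not tested. After quantile normalization LRP6 was at 0.028, RYK at 0.015 and LEF1 at 0.016. With gene means LRP6 was at 0.063, AXIN2 at 0.023, APC at 0.00071 and CTNNB1 at 0.013. Without probe sets that can bind several transcripts DKK3 was at 0.020 and APC at 0.065. With 1 array left out FZD10 ranged from -0.069 to 0.12, LRP6 from -0.029 to 0.025, RYK from -0.054 to 0.036, WIF1 from -0.092 to 0.066, LGR4 from -0.0014 to 0.27, AXIN1 from -0.015 to 0.056, CTNNB1 from -0.069 to 0.062, LEF1 from -0.071 to 0.038 and TCF7L1 from -0.12 to 0.071. With the probe set of smallest spread in place of the brightest, 9 of 28 genes changed sign, among them DKK2 (-0.14), SFRP1 (-0.017) and LRP5 (0.065), and TNFRSF19 was at -0.0044. In the other fits DKK2 ranged from 0.19 to 0.69 and TNFRSF19 from -0.35 to -0.084. With 2 arrays per group, signals near array background limit what can be told of the 11 dimmest members.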

Other observations

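FZD8, a receptor gene, is measured only by 3 probe sets that the annotation shares with the microRNA gene MIR4683, so their signal belongs to neither gene alone. The first gave 6.31 and 6.34 in knockdown cells and 6.26 and 6.24 in control cells, the second 6.01 and 5.81, against 6.06 and 6.03, and the third 6.55 and 6.54, against 6.61 and 6.56. All 3 had control signals below that of HBB, and none passed the threshold (limma, adjusted p 0.73, 0.69 and 0.91).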
